A study of Mus musculus with 11 samples.

Results

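The 8 genes that encode the subunits of the chaperonin TRiC, also called CCT, were examined in single 8-cell mouse embryos that lacked or retained *Prdm10*. The members are defined by name (*Tcp1*, *Cct2*, *Cct3*, *Cct4*, *Cct5*, *Cct6a*, *Cct7* and *Cct8*), and each symbol matched 1 row of the deposited tables. All 8 were among the 10489 genes, of 54146 listed, with a mean normalised read count above 10. The study compared 5 mutant embryos (Prdm10 KO) with 6 control embryos that were wild-type or heterozygous (Prdm10 WT/HET). All embryos came from natural matings of *Prdm10* heterozygotes on a C57BL/6 background and were collected at embryonic day 2.5, and each library was made from 1 whole embryo. The mutant allele lacks exon 5, a deletion that the study describes as shifting the reading frame. The groups were assigned from detection of that exon in the cDNA, so wild-type and heterozygous embryos were not separated. The mothers were heterozygous and carried 1 intact allele, and mRNA stored in the egg was not separated from that of the embryo.

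TRiC is a large ATP-driven folding machine of the cytosol. Its subunits are related but distinct proteins, each present at a fixed place in back-to-back rings that enclose an unfolded protein and release it folded. Its best known clients are actin and tubulin, which it receives in part from the hexameric co-chaperone prefoldin, and it also folds WD40 proteins such as the mitotic activator CDC20 and G protein β subunits. Because each ring holds 1 copy of each subunit, the mRNA levels of the 8 genes can be read as a balance, although protein levels were not measured here.

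Libraries were prepared in 2 batches. Batch 1 received 16 cycles of PCR pre-amplification (3 controls, 2 mutants) and batch 2 received 13 cycles (3 controls, 3 mutants). Summed expected counts ranged from 3534735 to 8265840 per library, of which the 8 genes took 16796 to 41255 (0.396% to 0.589%). *Prdm10* normalised counts were 236 ± 85.2 (SD, n = 6) among controls and 151 ± 39.4 (SD, n = 5) among mutants. The estimated change of -0.66 ± 0.26 (log2, SE) did not pass (DESeq2 adjusted p = 0.215) and the counts of the groups overlapped. In TPM, which divides by effective length, the groups did not overlap, with *Prdm10* at 11.1 to 24.8 TPM for controls and 4.88 to 8.16 TPM for mutants. The summed TPM of 6 genes of the cleavage-stage embryo (*Pou5f1*, *Tfap2c*, *Tead4*, *Cdh1*, *Obox6*, *Dppa3*) was 6591 to 7661 for controls and 6432 to 7324 for mutants. That of 6 cumulus and granulosa cell markers was at most 0.19 for controls and 0.3 for mutants, with *Has2*, *Ptx3* and *Foxl2* listed at 0 in all 11 libraries. Sums of 3 oviduct epithelium markers reached 24.2 for controls and 31.9 for mutants, and of 3 blood markers 10.9 and 1.95, and their part in the results was not tested.

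The sequences at the start of the genes were examined first because 1 of the 8, *Cct5*, is on the study's list of genes associated with PRDM10 binding sites in mouse embryonic stem cells, and the other 7 are not. The study assigned peaks over the gene body and its flanks, so the list alone does not place a peak at the start. *Cct5* (ENSMUSG00000022234.15; chr15:31590800-31601804, minus strand, GRCm38) starts 48 bp from *Fam173b*, which is transcribed in the opposite direction and is on the same list. RefSeq promoter windows of 300 bases on GRCm38.p6 were found for 7 of the 8 subunits, 9 windows in all, with 2 each for *Cct2* and *Cct5*. *Cct4* had no entry. The first *Cct5* window (chr15:31601797-31602096, minus strand) shares 231 bases with that of *Fam173b* (listed there as *Atpsckmt*). This *Cct5* window is shown because it contains the starts of both genes in the GENCODE annotation. RefSeq places the starts elsewhere, with that of *Fam173b* outside this window. Capitals mark a heat shock element (TTCNNGAA) and an NRF1 motif (GCGCATGCG, present on both strands with overlap).

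Cct5: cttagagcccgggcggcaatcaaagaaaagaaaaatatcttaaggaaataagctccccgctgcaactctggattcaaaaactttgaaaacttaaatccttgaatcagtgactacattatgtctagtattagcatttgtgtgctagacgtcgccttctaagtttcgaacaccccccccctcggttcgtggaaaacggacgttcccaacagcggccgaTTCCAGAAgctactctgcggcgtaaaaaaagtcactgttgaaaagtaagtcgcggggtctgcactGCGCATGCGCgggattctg

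NRF1 is a transcription factor of genes for respiration and growth. Its motif was in the windows of 1 of 7 subunits, *Cct5*, and in 1.75% of all 32851 windows. The study's DNA-binding probe for PRDM10 is shown beside its altered form, with the stretch of 11 bases that holds the changes in capitals.

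wild-type probe: ctggcacagTGGTCGCGCCCggcccgcc
mutant probe: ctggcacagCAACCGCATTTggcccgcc

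The stretch TGGTCGCGCCC was searched for without gaps on both strands. The best match in the *Cct5* window printed above was 7 of 11 bases, and that in the *Fam173b* window was also 7. In the second *Cct5* window the best match was 8. The windows of *Cct2*, *Cct3* and *Cct6a* held a match of 9, and 10.4% of all windows held one of 9 or more, and those of *Cct7*, *Cct8* and *Tcp1* held a match of 8 at best, which 47.2% of all windows reached.

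The other subunits differed in the motifs at their starts. A subunit counted if any of its windows held the motif, whereas the shares are of single windows. The CCAAT box, bound by the factor NF-Y, was present in 4 of 7 subunits (*Tcp1*, *Cct3*, *Cct6a*, *Cct7*) and in 37.4% of all windows. The GABP motif (CCGGAAG, bound by ETS family factors) was present in 3 of 7 (*Tcp1*, *Cct2*, *Cct8*) and in 8.86% of all windows. The heat shock element (GAANNTTC or TTCNNGAA, bound by HSF1) was present in 3 of 7 (*Cct2*, *Cct5*, *Cct6a*) and in 15.1% of all windows. In *Cct2* it was in the second window only. The CRE (TGACGTCA) and the E-box (CACGTG) were in the window of no subunit and in 1.79% and 7.15% of all windows. The lines below show, with 10 bases on each side, 1 match in each of the 6 other subunits, the CCAAT box (or ATTGG, its other strand) in the first 3 and the GABP motif (or CTTCCGG) in the rest. A match is a description of letters and no evidence of binding.

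Cct3: aatactgtcgATTGGcctatgtttt
Cct6a: ttggattaagCCAATcagcgggcgg
Cct7: ccgggcgctgATTGGccaaaactct
Cct2: agccgctacgCTTCCGGcccagcccgc
Cct8: ggcggggcgaCCGGAAGtagggggacg
Tcp1: cagccccctaCTTCCGGcgttttcagt

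All 8 subunit mRNAs were abundant in the 8-cell embryo. TPM, which scales each library to 1 total and divides by transcript length, was used to compare levels between genes. Mean TPM over the 11 embryos ranged from 323 for *Tcp1* to 560 for *Cct8*, and each subunit exceeded at least 95.2% of the 10489 genes with a mean normalised count above 10, whose median was 12 TPM. The summed TPM of the 8 genes was 3603 ± 659 (SD, n = 6) among controls and 3533 ± 603 (SD, n = 5) among mutants. It was 3950 to 4354 in the 5 embryos of batch 1 and 2723 to 3657 in the 6 of batch 2, so the batches did not overlap whereas controls and mutants did.

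**Figure D1:**
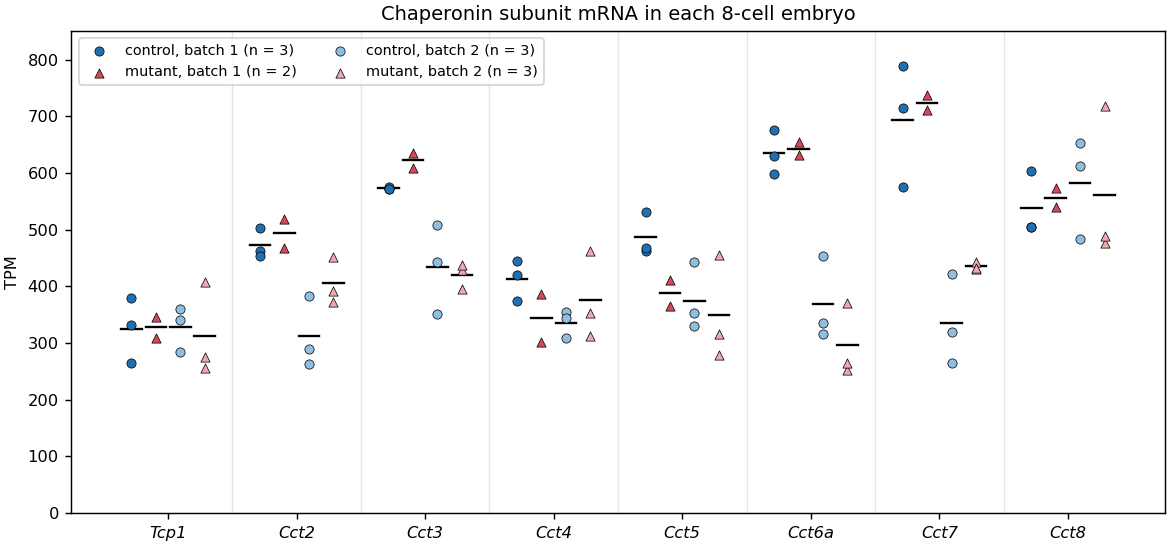
TPM (y axis, linear) of each subunit in each of the 11 embryos, with circles for controls, triangles for mutants, dark colours for batch 1, light colours for batch 2, and a horizontal line at the mean of each set. *Cct6a* and *Cct7* are higher in batch 1 than in batch 2, and the levels of the 8 genes span 253 to 789 TPM.

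The largest and the smallest subunit of an embryo differed by 1.66- to 2.7-fold. *Cct8* encodes the θ subunit. Its TPM was 483, 652 and 613 for controls 1 to 3 and 718, 477 and 488 for mutants 1 to 3 (batch 2), and 504, 505 and 604 for controls 4 to 6 and 539 and 574 for mutants 4 and 5 (batch 1). It was the highest subunit in all 6 embryos of batch 2 and in none of batch 1, where *Cct7* was the highest in 4 embryos and *Cct6a* in 1. *Tcp1*, which encodes the α subunit, was the lowest in 4 embryos of batch 1 and 2 of batch 2. Its TPM was 341, 360 and 284 for controls 1 to 3, 407, 275 and 255 for mutants 1 to 3, 265, 331 and 380 for controls 4 to 6, and 346 and 309 for mutants 4 and 5. These values overlapped between batches and between groups.

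By geometric mean the order over all embryos was *Cct8* (555 TPM), *Cct7* (501), *Cct3* (494), *Cct6a* (442), *Cct2* (406), *Cct5* (394), *Cct4* (365) and *Tcp1* (319). Neighbours in this order were compared within embryos with an exact sign-flip permutation test (two-sided, 7 comparisons). *Cct4* exceeded *Tcp1* in 9 of 11 embryos by 0.19 ± 0.19 (SD) on the log2 scale (exact permutation p = 0.00586, 0.041 after Benjamini-Hochberg adjustment), a difference no larger than its SD. The pairs were set by sorting the same values, which these p do not take into account. The other 6 pairs gave exact permutation p from 0.101 to 0.805 (adjusted 0.303 to 0.805). In batch 1 alone *Cct4* exceeded *Tcp1* in 4 of 5 embryos, by 0.24 (exact permutation p = 0.125). The order differed within the batches. In batch 1 it began *Cct7* (702 TPM), *Cct6a* (637), *Cct3* (592) and *Cct8* (544), and no pair of neighbours could reach a p below 0.0625 with 5 embryos. In batch 2 *Cct8* (564 TPM) exceeded *Cct3* (425), the next in order, in 6 of 6 embryos (exact permutation p = 0.0312, the smallest that 6 embryos allow, and 0.218 after adjustment over 7 pairs), and *Cct6a* (325) stood last but 1, above *Tcp1* (316). No neighbours in batch 2 passed after adjustment.

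Expressed as a share of the summed TPM, an even balance would give each subunit 12.5%. *Cct3* (γ subunit) was the steadiest relative to its level at 14.1% ± 1.16 (SD, n = 11). *Cct8* held 11.6% to 14.7% in batch 1 and 16.5% to 21.0% in batch 2. *Cct6a* (ζ subunit) showed the reverse, at 15.1% to 16.3% in batch 1 and 8.74% to 12.7% in batch 2. *Cct7* (η subunit) held 14.0% to 18.1% in batch 1 and 9.72% to 14.9% in batch 2, which overlapped through control 6, the lowest of batch 1. For *Cct8* and *Cct6a* the batches did not overlap. Shares within an embryo add to a fixed total, so a higher share of one subunit lowers the others.

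**Figure D2:**
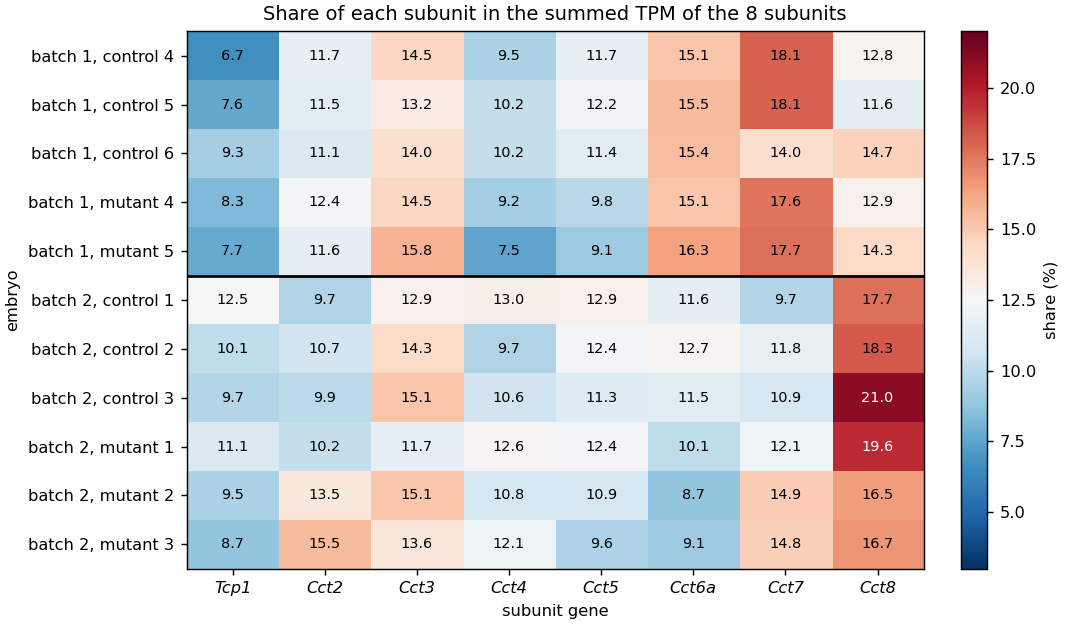
Share (%) of each subunit gene (columns) in the summed TPM of the 8 subunits for each embryo (rows), with batch 1 above the line and batch 2 below. The *Cct8* column changes from at most 14.7% in batch 1 to at least 16.5% in batch 2, and the *Cct6a* column changes the other way.

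Between controls and mutants the ranges of all 8 shares overlapped when the batches were pooled. In batch 1, *Cct5* (controls 11.4% to 12.2%, mutants 9.08% to 9.83%) and *Cct4* (9.46% to 10.2%, 7.49% to 9.24%) stood apart. In batch 2, *Cct6a* (controls 11.5% to 12.7%, mutants 8.74% to 10.1%) and *Cct7* (9.72% to 11.8%, 12.1% to 14.9%) stood apart. In normalised counts 23.6% of all genes stood apart in batch 1 and 13.0% in batch 2. *Cct5* (ε subunit) held 12% ± 0.636 (SD, n = 6) among controls and 10.4% ± 1.34 (SD, n = 5) among mutants. *Cct2* (β subunit) held 10.8% ± 0.832 (SD, n = 6) among controls and 12.6% ± 2.0 (SD, n = 5) among mutants, with its highest shares, 15.5% and 13.5%, in mutants 3 and 2. *Cct6a* held 13.6% ± 1.92 (SD, n = 6) among controls and 11.9% ± 3.57 (SD, n = 5) among mutants, and *Cct7* held 13.8% ± 3.63 (SD, n = 6) and 15.4% ± 2.33 (SD, n = 5). The mean shares of the other 4 subunits were closer, from 16% in both groups for *Cct8* to 9.32% and 9.06% for *Tcp1*. No test was run on shares.

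The study design allows the question of whether loss of *Prdm10* changed these genes. No subunit passed between mutant and control embryos in DESeq2, with batch and group as terms and an adjusted p under 0.05 as threshold. Across all genes 1.45% (151 of 10448 tested) passed. No subunit had an unadjusted p under 0.05, and edgeR called 0 of 8 as well, against 0.271% of all genes. Log2 fold changes of the subunits ran from -0.19 to 0.25 with a median of -0.04, 3 were positive and 5 negative, and the 95% intervals of all 8 lay between 0.709- and 1.45-fold. Changes inside each gene's own interval are not excluded by these data. Each library held a whole embryo and counts were scaled for depth, so these estimates do not measure cell number or RNA per cell.

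**Figure D3:**
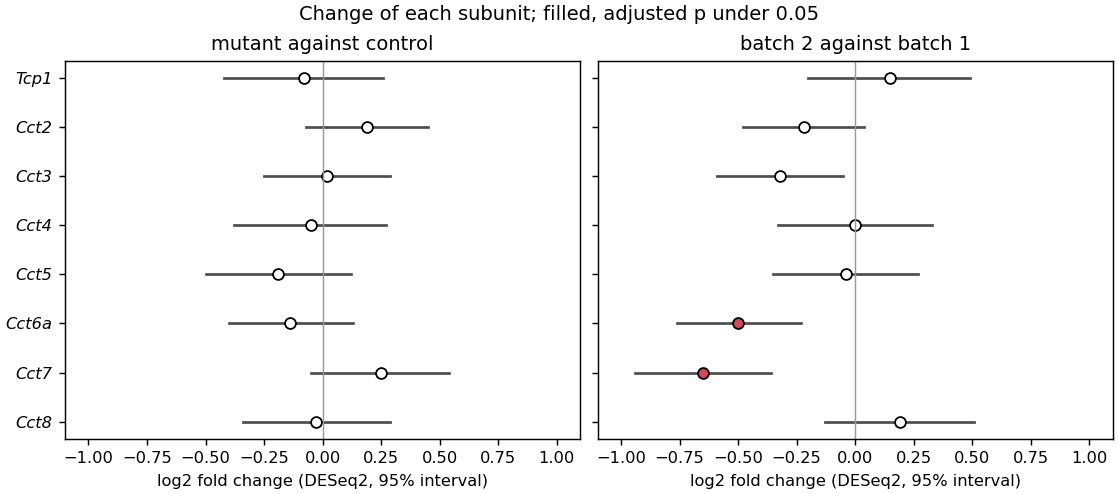
Log2 fold change of each subunit (points) with its 95% interval (bars), for mutant against control embryos on the left and batch 2 against batch 1 on the right. All intervals on the left include 0, and *Cct6a* and *Cct7*, filled, are below 0 on the right. The interval of *Cct3* on the right also lies below 0, but *Cct3* did not pass after adjustment.

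The largest estimate was that of *Cct7*. Its normalised counts, which are scaled for depth but not for length, were 2355, 3567 and 2943 for controls and 3881, 3968 and 3771 for mutants of batch 2, and 4838, 5952 and 4634 for controls and 5349 and 5372 for mutants of batch 1. The 3 mutants of batch 2 lay above its 3 controls, and in batch 1 the mutants lay inside the range of the controls. The log2 fold change of *Cct7* was 0.25 ± 0.15 (SE; DESeq2 adjusted p = 0.544). It was 0.07 in batch 1 alone, 0.39 in batch 2 alone, 0.14 with no batch term and 0.16 without control 1, and did not pass in any of them.

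*Cct2* came next among the positive estimates, at 0.19 ± 0.13 (SE; DESeq2 adjusted p = 0.618). The estimate was 0.04 in batch 1 alone, 0.32 in batch 2 alone and 0.12 without control 1, and did not pass in any. The normalised counts of *Cct2* were 1838, 2431 and 2209 for controls and 2483, 2774 and 2802 for mutants of batch 2, without overlap. In batch 1 they were 2454, 2948 and 2828 for controls and 2898 and 2718 for mutants, with overlap. *Cct3* had 2210, 3270 and 2891 for controls and 2675, 2884 and 2455 for mutants of batch 2, and 3045, 3395 and 3438 for controls and 3491 and 3649 for mutants of batch 1. Only in batch 1 did its groups stand apart, and its log2 fold change was 0.02 ± 0.14 (SE; DESeq2 adjusted p = 0.985).

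*Cct5* had the most negative estimate, -0.19 ± 0.16 (SE; DESeq2 adjusted p = 0.708). Its normalised counts were 2998, 3543 and 3011 for controls and 3892, 2900 and 2432 for mutants of batch 2, and 3138, 3967 and 3686 for controls and 2859 and 2732 for mutants of batch 1. Mutant 1 was the second highest of the 11 embryos, whereas both mutants of batch 1 lay below its controls. The mean in mutants was 0.777 of that in controls in batch 1 and 0.966 in batch 2. Without mutant 1 the estimate for *Cct5* was -0.31 ± 0.14 (SE; DESeq2 adjusted p = 0.335). *Cct6a* had 2664, 3343 and 2913 for controls and 2967, 2435 and 2351 for mutants of batch 2, and 3414, 4527 and 4103 for controls and 3744 and 3954 for mutants of batch 1, overlapping in both. Its log2 fold change was -0.14 ± 0.14 (SE; DESeq2 adjusted p = 0.775). That estimate was -0.06 in batch 1 alone, -0.2 in batch 2 alone and -0.08 without control 2, and did not pass in any.

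The remaining subunits had estimates near 0. *Tcp1* stood at -0.08 ± 0.17 (SE; DESeq2 adjusted p = 0.93), with 2299 to 3987 normalised counts among controls and 2729 to 4219 for mutants. *Cct4* (δ subunit) stood at -0.05 ± 0.17 (SE; DESeq2 adjusted p = 0.952), with 3282 to 4674 for controls and 2974 to 4937 for mutants. *Cct8* stood at -0.03 ± 0.16 (SE; DESeq2 adjusted p = 0.979), with 3734 to 5809 for controls and 4357 to 6082 for mutants. For all of these the groups overlapped. Mutant 1 was the highest of the 11 embryos in *Tcp1*, *Cct4* and *Cct8*.

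Within batches, controls and mutants did not overlap for 2 of 8 subunits in batch 1 (*Cct3* higher and *Cct5* lower in mutants), beside 23.6% of all genes, and for 2 of 8 in batch 2 (*Cct2* and *Cct7* higher), beside 13.0%. The 2 sets had no subunit in common. The batch by group interaction was called for 0 of 8 subunits in DESeq2, where 0.0382% of all genes passed, and for 0 of 8 in edgeR, where 0.0% of all genes passed (0 of 12740, with 468 at an unadjusted p under 0.05), so these counts say little about the subunits. No subunit had an unadjusted interaction p under 0.05, and the DESeq2 log2 estimates ran from -0.18 for *Cct3* to 0.44 for *Cct4*. The effective length that RSEM derived from isoform use was compared between the groups with an exact permutation test over all splits (two-sided, 8 tests), which gave p from 0.0584 for *Tcp1* to 0.81 for *Cct7* (0.467 to 0.81 after Benjamini-Hochberg adjustment). Over splits within batches, added after seeing the data, the exact permutation p was 0.025 for *Tcp1* (0.2 after adjustment) and 0.215 to 0.99 for the others. Effective lengths did not overlap between the groups for 2 of 8 subunits in batch 1 (*Tcp1* and *Cct2*, both shorter in mutants), beside 15.0% of all genes, and for 1 of 8 in batch 2 (*Cct5*, longer in mutants), beside 10.6%. *Cct6a* was the subunit with the widest range of effective length, 1380 to 1549 bases in batch 1 and 1517 to 1847 in batch 2.

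Some subunits passed between the batches. *Cct7* was lower in batch 2, by a log2 fold change of -0.65 ± 0.15 (SE; DESeq2 adjusted p = 0.000168), and *Cct6a* was lower by -0.5 ± 0.14 (SE; DESeq2 adjusted p = 0.00234). These were the 2 of 8 subunits that passed, in a comparison where 27.9% of all genes did and 14.0% were lower. The 5 embryos of batch 1 had 4634 to 5952 normalised counts of *Cct7* and the 6 of batch 2 had 2355 to 3968. For *Cct6a* the ranges were 3414 to 4527 and 2351 to 3343. Both genes were apart between the batches in every embryo, as were 13.0% of all genes. *Cct3* had -0.32 ± 0.14 (SE; DESeq2 adjusted p = 0.0731) and *Cct2* -0.22 ± 0.13 (SE; adjusted p = 0.23), and the other 4 subunits ran from -0.04 to 0.19. edgeR called the same 2 subunits, beside 19.7% of all genes in either direction and 9.49% lower. With an offset for effective length, added after seeing the data, the DESeq2 estimate was -0.72 for *Cct6a* and -0.69 for *Cct7*.

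On the log2(TPM + 1) scale limma called 4 of 8 subunits lower in batch 2 (*Cct2*, *Cct3*, *Cct6a* and *Cct7*). Of all genes 18.2% were called lower and 23.9% in either direction. *Cct6a* was at -0.95 and *Cct7* at -0.91. On that scale the median of all genes stood at -0.2 between the batches, against 0.0018 in DESeq2, so genes at large were also lower in batch 2 on that scale. In controls alone DESeq2 called *Cct7* (14.5% of all genes passed), and in mutants alone *Cct6a* (14.2%). The batches differed in pre-amplification and in the set of embryos prepared together, and these cannot be told apart.

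Several subunits lie against other genes, and the libraries do not mark strand. *Cct2*, *Cct3*, *Cct4* and *Cct5* shared none of their 75-base words (the read length) with transcripts of other genes. *Tcp1* (chr17:12915701-12925067, plus strand) shared 11.7% with *Acat3*, *Acat2*, *Mrpl18* and *Gm26130*, and *Cct6a* (chr5:129786998-129846371, plus strand, annotated as a processed transcript) shared 13.2%, with *Psph* first. *Cct7* shared 2.05% with *Pradc1* and *Cct8* shared 3.4% with *Usp16*. The counts of *Cct2*, *Cct3* and *Cct5* were whole (within 0.005) in all 11 libraries, and those of *Tcp1*, *Cct6a* and *Cct7* in none, so reads were divided for the latter.

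Of the 8 subunits, 6 had a gene on the opposite strand starting within 1 kb, and 5 of those neighbours were tested. Only *Fam173b*, the neighbour of *Cct5*, passed. This gene encodes a mitochondrial methyltransferase of the ATP synthase c subunit. It had 29.8, 53.9 and 72.7 normalised counts among controls and 15.1, 11.4 and 8.78 for mutants of batch 2, and 33.6, 67.3 and 33.1 for controls and 4.1 and 5.18 for mutants of batch 1. All 5 mutants lay below all 6 controls. Its log2 fold change of -2.55 ± 0.47 (SE) passed in DESeq2 (adjusted p = 2.89e-05) and in edgeR (adjusted p = 0.0412). It also passed in batch 1 alone, but not in batch 2 alone (DESeq2 adjusted p = 0.246), and it passed in all 11 fits that left out an embryo. Other settings gave log2 fold changes of -3.25 to -2.13.

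The 2 neighbours were set side by side after their values were seen, so their ratio is a description. The log2 ratio of *Fam173b* to *Cct5* (normalised counts plus 1) was -6.18 ± 0.53 (SD, n = 6) among controls and -8.33 ± 0.59 (SD, n = 5) among mutants. The groups did not overlap, at -6.76 to -5.35 for controls and -9.13 to -7.87 for mutants. The counts of *Cct5* are far higher, with a mean TPM of 401 against 5.48.

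**Figure D4:**
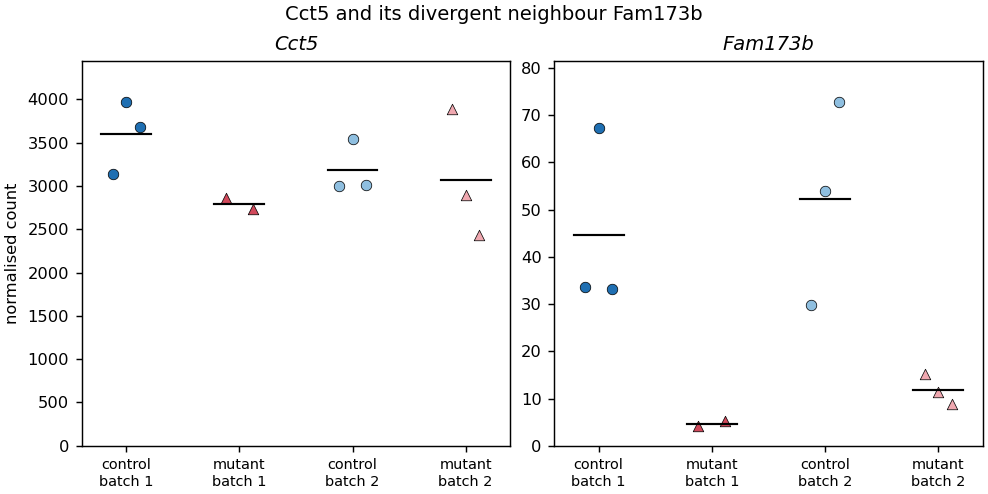
Normalised counts (y axes, linear, each from 0) of *Cct5* (left) and its divergent neighbour *Fam173b* (right) in each embryo, by genotype and batch, with a line at the mean of each set. All 5 mutants are below all 6 controls for *Fam173b* only.

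The other neighbours gave values within the spread of the embryos. *Mrpl18*, which overlaps *Tcp1* and encodes a mitochondrial ribosomal protein, had a log2 fold change of -0.1 ± 0.16 (SE; DESeq2 adjusted p = 0.906), and it was higher in batch 2 by 0.59 (DESeq2 adjusted p = 0.00238). *Psph*, a serine synthesis enzyme beside *Cct6a*, had 0.06 ± 0.24 (SE; DESeq2 adjusted p = 0.964). *Pradc1* beside *Cct7* had 0.11 ± 0.3 (SE; DESeq2 adjusted p = 0.943) and *Tsacc* beside *Cct3* had -0.4 ± 0.61 (SE; DESeq2 adjusted p = 0.888). *B130034C11Rik*, beside *Cct8*, was too low to be tested.

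The partners of the chaperonin were taken from 7 lists of 62 genes, of which 53 were tested. The lists were written with earlier results of these data known, so shares over them are descriptions and no evidence of enrichment. Of these, 2 were lower in mutants and none higher, which is 3.77% beside 1.45% of all genes, and the median of all genes was -0.0012. The prefoldin list had 1 of 6 genes lower, *Pfdn4*. Its normalised counts were 96.8 to 218 for controls and 6.83 to 19.5 for mutants, with no overlap. Its log2 fold change of -3.42 ± 0.32 (SE) passed in DESeq2 (adjusted p = 1.46e-22) and in edgeR (adjusted p = 0.000129). PFDN4 is a β-type subunit of prefoldin, which passes unfolded actin and tubulin to TRiC. The other 5 prefoldin subunits, none of which passed, had estimates of 0.01 to 0.29 and the list's median was 0.12. Like *Cct5* and *Fam173b*, *Pfdn4* is on the study's list of PRDM10-associated genes. Of the 53 tested partner genes 8 are on it, beside 326 of 10448 genes tested (3.12%), and the other 7 (*Arl2*, *Gnb2*, *Wrap53*, *Hdac3*, *Mlst8*, *Trp53* and *Hsf1*) did not pass.

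Among 12 tested actin and tubulin genes, the clients of the chaperonin, 1 was lower and the median was -0.33. *Tubb5*, a widely expressed β-tubulin, had 287 to 1117 normalised counts among controls and 241 to 537 for mutants, which overlapped through control 2. The log2 fold change was -1.02 ± 0.29 (SE; DESeq2 adjusted p = 0.0437). It did not pass in edgeR (adjusted p = 0.263) or limma. It passed in 6 of 12 other settings, some of which change only the filter, and in 2 of 11 fits that left out an embryo. None of its 75-base words was shared with annotated transcripts of other genes. Of the 12, 3 had positive estimates, the highest being 0.67, and 9 had negative ones.

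No gene passed in the other 5 lists. Their best expressed members were as follows. The phosducin-like cofactor *Txndc9*, a regulator of TRiC's ATP cycle, had a log2 fold change of -0.47 ± 0.17 (SE; DESeq2 adjusted p = 0.188), with a median of -0.06 over 3 tested genes. The tubulin cofactor *Tbcb* had 0.04 ± 0.19 (SE; DESeq2 adjusted p = 0.97), with a median of -0.21 over 6 genes. *Cdc20*, a folding client that activates the anaphase-promoting complex, had 0.21 ± 0.18 (SE; DESeq2 adjusted p = 0.714), with a median of 0.12 over 14 other clients.

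The mitochondrial co-chaperonin *Hspe1* had -0.17 ± 0.18 (SE; DESeq2 adjusted p = 0.814), with a median of -0.09 over 4 related chaperonins. *Cct6b*, the testis paralog of *Cct6a*, had a mean TPM of 11.4 against 471 for *Cct6a*. The constitutive HSP70 chaperone *Hspa8* had 0.4 ± 0.18 (SE; DESeq2 adjusted p = 0.328), with a median of 0.31 over 8 heat-shock genes. The genes nearest the threshold, named after their values were seen, were *Mlst8*, a WD40 subunit of the mTOR complexes, at -0.91 ± 0.27 (SE; DESeq2 adjusted p = 0.0512), and the heat shock factor *Hsf2* at 0.82 ± 0.25 (SE; DESeq2 adjusted p = 0.0553). *Mlst8* passed in 1 of 12 other settings and in 3 of 11 fits that left out an embryo, and *Hsf2* in 1 and 2.

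**Figure D5:**
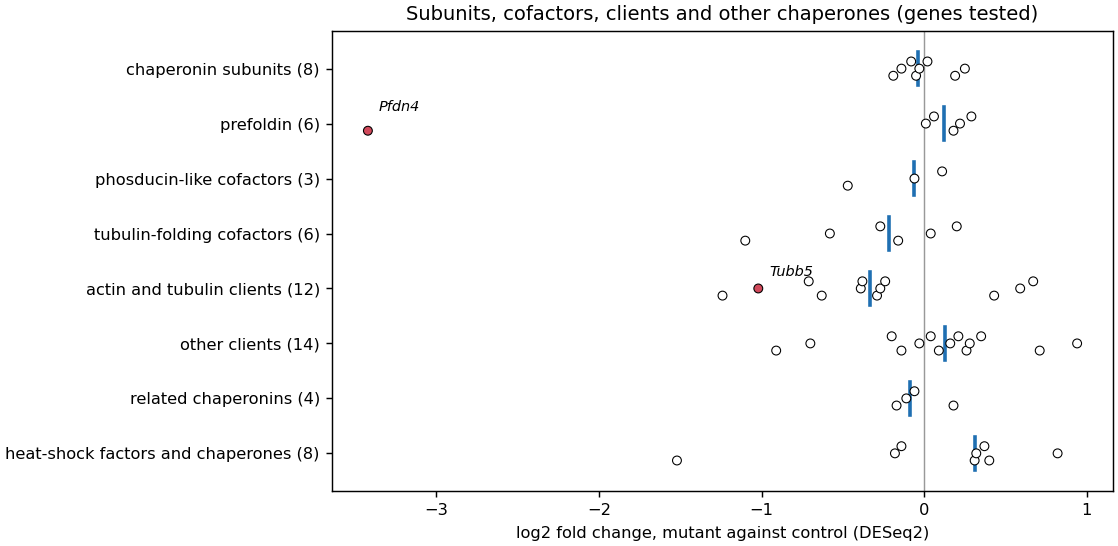
Log2 fold change between mutant and control embryos (x axis) of each tested gene (circles) in the subunits and 7 lists (rows, number of genes tested in brackets), with blue lines at the medians and filled circles for genes that passed. The 8 subunits lie between -0.19 and 0.25, and the filled circles are *Pfdn4* and *Tubb5*.

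With batch and group removed, the residual SD on the log2 scale was 0.16 for *Cct2* to 0.27 for *Tcp1*, against a median of 0.35 for genes with a mean normalised count above 100, most of which are lower in level than the subunits. Of those genes 3.84% had a smaller SD than *Cct2* and 28.2% a smaller SD than *Tcp1*. Each subunit was compared with the mean of the other 7 by Pearson's r of these residuals over 11 embryos. *Cct6a* and *Cct5* (r = 0.8 each) were the most like the mean of the rest, and 1.6% and 1.78% of 5387 other genes had a higher r with the same mean. *Cct2* (0.44) and *Cct7* (0.45) were the least like it, with 20% and 19.2% of genes higher. *Tcp1* (0.65), *Cct8* (0.66), *Cct4* (0.59) and *Cct3* (0.5) stood between. Single pairs gave another order. Of all pairs among the 8, *Cct2* with *Cct7* had the highest r (0.83) and *Cct3* with *Cct4* the lowest (-0.09), and *Cct5* with *Cct6a* had 0.69. All values of an embryo come from 1 library and share its scaling, and these r are descriptions.

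By the same measure the 5 genes most like the mean of the 8 subunits were *Srp54a* (r = 0.96), a signal recognition particle subunit with near-identical copies in the mouse genome, *Slc25a17* (0.96), a peroxisomal carrier, *Frg1* (0.96), *Anapc5* (0.94), a subunit of the anaphase-promoting complex, and *Rpp30* (0.93), a subunit of RNase P. The median over 5387 genes was 0.04. None of the 5 passed between mutant and control embryos, and *Srp54a* and *Anapc5* were lower in batch 2. Spearman's rho kept 1 of the 5, *Frg1*, among its top 5, and residuals of log2(TPM + 1) kept 2, so the names depend on the measure.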

How the data were processed

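Single-embryo RNA-seq libraries of 11 embryos were made with an unstranded Smart-seq2 protocol. The authors mapped single-end reads of 75 bp to GRCm38 with STAR (version 2.6.0c) and quantified genes with RSEM. The deposited tables hold the RSEM expected count of each gene, in which shared reads are divided, the TPM, scaled to one total per library, and the effective length. The authors' own table of comparisons, with a log2 fold change and p-values, was not used. Symbols were matched for 54079 of 54146 genes, and coordinates are from a later GENCODE annotation (vM21) of the same build.

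Expected counts were rounded and fitted over all genes with DESeq2 (version 1.42.0; Wald test, terms for batch and group, no shrinkage, adjusted p under 0.05 by Benjamini-Hochberg, mean normalised count above 10) in R (version 4.3.3). DESeq2 was the main test because the study used it. Alternatives were edgeR (version 4.0.16), by its quasi-likelihood test with TMM factors, limma (version 3.58.1) on log2(TPM + 1) or log2(TPM + 0.1), TMM factors within DESeq2, an offset for effective length, other filters on low counts (none, a mean above 100, or 10 counts in 5 libraries), Cook's filter off, fits of 1 batch or without the batch term, and fits that left out each embryo in turn. Exact permutation tests were used for single values. The independent filtering level was set to the threshold after the number of calls at the default level, slightly lower, had been seen. The scripts were tested on simulated data, where DESeq2 made more false calls than its threshold allows and edgeR made fewer false calls but recovered fewer of the planted changes, and both are given. The offset for effective length in the batch comparison and the ratio of *Fam173b* to *Cct5* were chosen after seeing the data.

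The genes named are the 8 subunits, *Prdm10*, opposite-strand genes starting within 1 kb, list genes that passed (or, in lists with none, the best expressed member; *Pfdn5* and *Actb* lead the lists with a call), the 5 genes most like the subunits, and *Cct6b*, *Mlst8*, *Hsf2* and the partner genes on the PRDM10 list, named after their values were seen. Likeness was Pearson's r of residual log2(normalised count + 1) after removing batch and group, among non-pseudogenes with a mean above 100. The members and lists were chosen with earlier results of these data known. Embryos were separate samples, and replicate numbers, given in order within a group, do not pair them. No molecular identifiers were used, so count precision covers counting error only.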

Additional observations from a re-analysis of the deposited data

Results flagged for a closer look

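In 48 sets of values (8 subunits, 2 groups, and TPM, normalised count or share), 3 had 1 embryo far from the others of its group by Dixon's test, where chance flags about 1 in 20 sets. Mutant 1 had 4219 normalised counts of *Tcp1*, against 2729 to 3155 in the other 4 mutants. It also had 6082 normalised counts of *Cct8*, against 4357 to 4785 in the others. Control 1 had a *Cct4* share of 13.0% of the summed TPM, against 9.46% to 10.6% in the other 5 controls. Without mutant 1 the log2 fold changes of *Tcp1* and *Cct8* were -0.19 and -0.1, and neither passed with or without it.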

How the results depend on the processing

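Between mutant and control embryos 0 of 8 subunits passed in all 23 other settings, in which 0.2% to 2.5% of all genes passed. Of the single subunit estimates, 171 kept their direction and 13 turned. *Cct3* turned to -0.0049 with no batch term and -0.06 in batch 2 alone, *Cct4* to 0.14 in batch 2 alone, and *Cct8* to 0.05 in batch 1 alone. Leaving out 1 embryo gave -0.04 to 0.09 for *Cct3*, -0.16 to 0.05 for *Cct4* and -0.1 to 0.04 for *Cct8*.

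Between the batches the number of subunits called was 1 in controls alone, 1 in mutants alone, 4 with limma on log2(TPM + 1), and 2 to 3 when 1 embryo was left out (*Cct3* joined without control 2, at -0.39 with a DESeq2 adjusted p of 0.0223). *Tcp1* turned to -0.03 with limma. *Cct4* turned to -0.01 with TMM factors, -0.19 in controls alone and -0.11 with limma, and *Cct5* to 0.14 in mutants alone. Leaving out 1 embryo gave -0.11 to 0.07 for *Cct4* and -0.13 to 0.01 for *Cct5*. *Cct6a* in controls alone was at -0.43 (DESeq2 adjusted p = 0.218) and *Cct7* in mutants alone at -0.46 (adjusted p = 0.0818). These fits hold fewer embryos, and otherwise the cause was not tested. Without division by length the mean shares were 11.5% for *Tcp1*, 9.16% for *Cct2*, 10.7% for *Cct3* and 13.6% for *Cct4*. The summed TPM of batch 1 was 4659 with mitochondrial-genome genes left out. No paired analysis was possible because replicate numbers were given in order within a group and the labels pair no embryos.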

Other observations

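The ratio of *Cct5* to *Cct2* TPM, noticed after the values were seen, was 1.0 to 1.34 among controls and 0.617, 0.78, 0.791 and 0.81 in 4 of 5 mutants, all below every control. Mutant 1 lay inside the range of the controls. It is given as a description, with no test.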
